A study of Mus musculus with 6 samples.

Results

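Alveolar type 1 cells are the thin, flat epithelial cells that form the gas exchange surface of the lung, and their genes were followed here in mouse lungs at E18.5, shortly before birth. The group holds 9 genes, Ager, Rtkn2, Hopx, Clic5, Akap5, Cav1, Emp2, Pdpn and Gprc5a, which were chosen by symbol from the platform annotation and not by a cut on their values. They were represented by 18 of the 45037 probe sets, or 9 of 18193 genes. The study compared Smad1 CKO embryos, in which Smad1 was removed in the lung epithelium by conditional knockout, with wild type embryos, in 3 pairs of samples, 1 of each genotype. The strain was C57/BL6 throughout, RNA came from the left lobe, and each of the 6 samples was read on 1 Affymetrix Mouse430_2 array. The sources used here do not give the driver of the recombinase, the deleted part of Smad1, any alleles that the wild type embryos carried or whether a sample was 1 embryo or a pool. Nothing in the labels says how litters relate to pairs, and p-values measure only the spread between these arrays.

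In the distal lung, epithelial progenitors give rise before birth to surfactant-producing type 2 cells and to type 1 cells, which flatten and spread over the capillaries. Smad1 carries signals of bone morphogenetic proteins from the cell membrane to the nucleus. Type 1 cells are known for an unusually large surface, many caveolae, and high levels of the receptor encoded by Ager and the membrane glycoprotein encoded by Pdpn. Several of the genes are not restricted to type 1 cells: Cav1 is also abundant in endothelium, and Pdpn is also made by lymphatic endothelium and mesothelium.

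The arrays were not equal in quality. On Smad1 CKO 3 the 18S ribosomal control probe sets averaged 2194, against 154 to 201 on the other 5 arrays, and the beta-actin controls averaged 4187, against 14693 to 17861. Median intensity ran from 70.6 to 77.8 on the CKO arrays and from 70.0 to 71.7 on the wild type arrays. In the upper tercile of probe sets by mean intensity, the median log2 difference, CKO minus wild type, by pair was -0.30 for the first, -0.02 for the second and -0.96 for the third, which holds that array. The 18 probe sets are all bright, at percentiles 81.3 to 99.8 of mean intensity, so values are given by pair and also without pair 3. Smad1 CKO 1 differed from the other arrays in sex-linked genes, with Xist at 10.95 (log2) against 6.07 to 7.70 and Eif2s3y at 3.78 against 7.06 to 9.04. Smad1 mRNA itself differed by 0.06 ± 0.51 (log2, SD over 3 pairs), and without the position of the deletion this does not check the labels.

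All 9 genes had a lower intensity in the CKO lung of every pair by their brightest probe set, which represents the gene, but after cyclic loess normalization, which evens out intensity-dependent differences between arrays, 5 of the 9 were lower in all pairs and the means of Cav1 and Gprc5a took the opposite sign. Of all genes 29.3% were lower in all 3 pairs, and of the 6065 genes in the upper tercile by mean intensity 50.9% were. None of the 18 probe sets passed the test across all probe sets (limma, adjusted p from 0.367 to 0.584), where 1 of 45037 passed (0.00222%). The sizes varied among the genes. In pairs 1 and 2 Clic5 and Rtkn2 lay between 1.89-fold and 3.11-fold lower by these probe sets, Emp2 lay between 1.34-fold and 1.48-fold lower, and Ager, Hopx, Cav1, Akap5, Pdpn and Gprc5a were at most 1.38-fold lower there. In whole-lobe RNA, fewer cells of a type and less RNA per cell cannot be told apart.

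**Figure D1:**
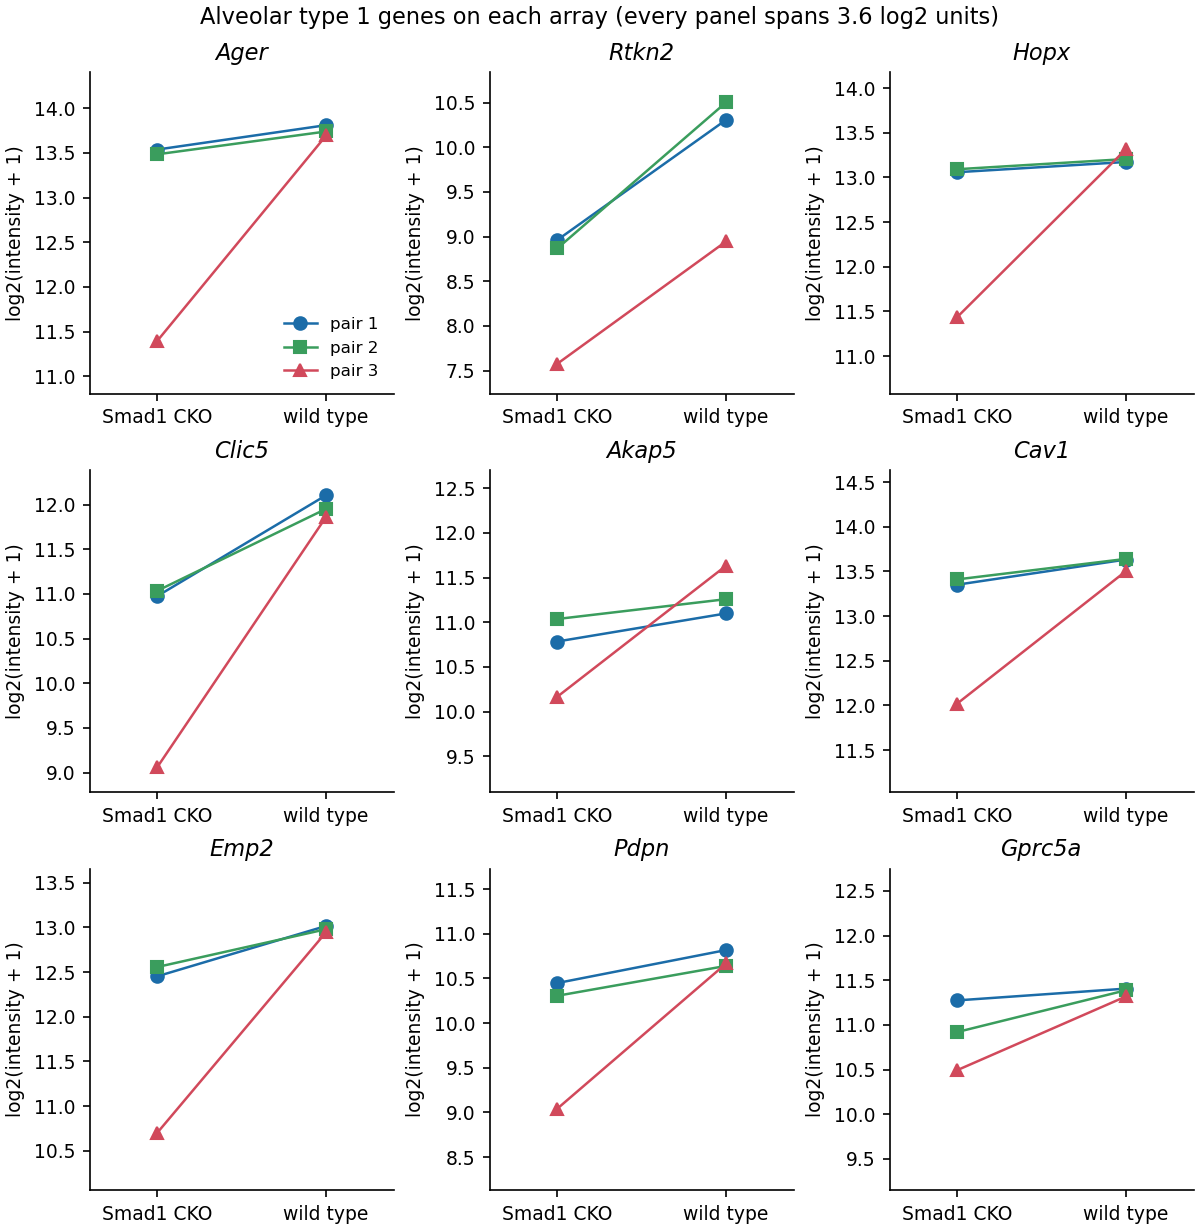
Level of each of the 9 genes, as log2(intensity + 1) of the brightest probe set, on the Smad1 CKO arrays (left) and the wild type arrays (right), with lines that join the 2 samples of a pair; every panel spans the same number of log2 units. Pair 3 gives the steepest line in 8 of the 9 panels, and the exception is Rtkn2, whose level in wild type 3 was also low.

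The promoter windows of Clic5, Emp2, Ager and Hopx are shown because these genes span the range of differences, Clic5 and Emp2 toward the lower end and Ager and Hopx closer to no difference in pairs 1 and 2. Each runs 5′ to 3′ on the strand of its gene from 250 bases before to 50 bases after a start annotated by RefSeq (GRCm38.p6). Capitals mark matches, on either strand, to GGCGCC, a motif of BMP-type SMAD complexes, CAGAC, a SMAD binding element, GGAATG, the TEAD motif, or CTCAAG, an NKX2-1 motif.
Clic5 chr17:44188322-44188621 (+ strand): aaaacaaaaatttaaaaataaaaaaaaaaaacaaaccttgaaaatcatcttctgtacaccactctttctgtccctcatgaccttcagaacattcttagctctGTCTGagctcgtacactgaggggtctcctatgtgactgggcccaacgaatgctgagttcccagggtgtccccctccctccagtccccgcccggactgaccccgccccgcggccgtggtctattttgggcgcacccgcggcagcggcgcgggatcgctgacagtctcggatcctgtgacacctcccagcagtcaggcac
Emp2 chr16:10313919-10314218 (- strand): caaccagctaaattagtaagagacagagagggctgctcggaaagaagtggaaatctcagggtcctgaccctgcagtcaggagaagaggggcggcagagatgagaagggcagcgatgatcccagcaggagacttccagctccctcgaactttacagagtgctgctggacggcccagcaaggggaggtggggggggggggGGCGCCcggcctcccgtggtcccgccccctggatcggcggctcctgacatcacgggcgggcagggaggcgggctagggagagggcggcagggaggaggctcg
Ager chr17:34597600-34597899 (+ strand): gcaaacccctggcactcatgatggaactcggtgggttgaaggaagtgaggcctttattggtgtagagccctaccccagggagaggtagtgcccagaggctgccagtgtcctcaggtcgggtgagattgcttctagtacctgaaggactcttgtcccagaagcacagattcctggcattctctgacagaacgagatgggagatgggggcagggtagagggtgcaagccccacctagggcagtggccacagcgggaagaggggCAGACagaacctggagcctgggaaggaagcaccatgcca
Hopx chr5:77115074-77115373 (- strand): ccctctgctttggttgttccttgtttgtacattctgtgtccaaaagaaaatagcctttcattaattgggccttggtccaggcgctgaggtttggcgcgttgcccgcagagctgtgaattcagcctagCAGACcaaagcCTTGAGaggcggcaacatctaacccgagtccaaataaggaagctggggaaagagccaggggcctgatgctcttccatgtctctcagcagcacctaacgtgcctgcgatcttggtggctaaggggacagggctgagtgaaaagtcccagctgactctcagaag

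RefSeq windows were matched by symbol for 7 of the 9 genes, in 9 windows, since Hopx and Cav1 have 2 each. Rtkn2 and Gprc5a had no entry. CAGAC was present in 4 of the 9 windows (Ager, Clic5, the first of Hopx and 1 of Cav1), against 49.6% of all 32851 windows of the same length. GGCGCC was found in 1 window, that of Emp2, against 11.9% of all. CTCAAG was found in both Hopx windows, against 15.9%, and GGAATG in none of the 9, against 14.7%. A match describes letters, not binding, and the absence of one says nothing of the factor.

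Ager encodes the receptor for advanced glycation end products, one of the most abundant proteins of type 1 cells. Its brighter probe set (1441958_s_at) read 11886, 11455 and 2691 in CKO lungs 1 to 3, against 14362, 13675 and 13259 in wild type lungs 1 to 3. All 3 CKO values lay below all 3 wild type values, but CKO lungs 1 and 2 were within 1.21-fold of their partners while CKO lung 3 was 4.93-fold lower. The difference was -0.94 ± 1.18 (log2, SD over 3 pairs; limma, adjusted p = 0.367). The other probe set (1420428_at) gave -0.86, and without pair 3 the gene was at -0.26 by the brighter one (95% interval -0.74 to 0.21). In pair 3, 2.15% of probe sets in the upper tercile had a lower difference than Ager, and in pairs 1 and 2, 32.8% had. Most of that tercile was dimmer than Ager, which lay at percentile 99.8 of mean intensity. The fibroblast markers Tcf21, Mfap4 and Fn1 (percentiles 99.6, 99.6 and 99.7) were at -2.37, -2.24 and -2.04 in pair 3. The airway markers Scgb1a1 and Scgb3a2 (99.8 and 99.9) were at -1.95 and -1.76, and Ager was at -2.30.

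Pdpn encodes podoplanin, a mucin-like glycoprotein of the apical membrane. It read 1396, 1264 and 526 in CKO lungs, against 1804, 1595 and 1625 in wild type lungs. The groups did not overlap, and pairs 1 and 2 were 1.29-fold and 1.26-fold lower. The difference was -0.78 ± 0.74 over 3 pairs and -0.35 without pair 3 (interval -0.83 to 0.12). Gprc5a, an orphan receptor induced by retinoic acid, read 2476, 1936 and 1440 in CKO lungs, against 2713, 2680 and 2555 in wild type lungs. Its wild type values were nearly equal and its CKO values spread from 1440 to 2476. The difference, -0.48 ± 0.35, was the smallest of the 9, and it changed sign after cyclic loess (0.12) and quantile normalization (0.11). In pair 3 Gprc5a was at -0.83, above the median of -0.96 for the upper tercile of probe sets.

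Cav1 encodes caveolin-1, the scaffold of caveolae. It read 10457, 10896 and 4157 in CKO lungs, against 12713, 12777 and 11633 in wild type lungs. Again the groups did not overlap, with 1.22-fold and 1.17-fold lower values in pairs 1 and 2. The difference of -0.67 ± 0.71 became -0.26 without pair 3 and 0.04 after cyclic loess normalization. Emp2, a tetraspan membrane protein that is also linked to caveolae, read 5604, 6022 and 1663 in CKO lungs, against 8285, 8077 and 7898 in wild type lungs by its brightest probe set (1433670_at). The wild type values lay close together and every CKO value was well below them. The 3 probe sets of Emp2 gave -1.08, -1.17 and -0.89 over 3 pairs and -0.49, -0.82 and -0.60 without pair 3. After cyclic loess normalization they gave -0.41, -0.57 and -0.30, so the direction held in each.

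Clic5 belongs to the chloride intracellular channel family and joins membranes to the actin cytoskeleton. Its brightest probe set (1456873_at) read 2012, 2097 and 533 in CKO lungs, against 4404, 3963 and 3725 in wild type lungs. The lowest wild type value was above the highest CKO value. Differences were -1.13, -0.92 and -2.80 in pairs 1 to 3, with a mean of -1.62 ± 1.03 (3.07-fold lower; limma, adjusted p = 0.367). The other 3 probe sets (1439505_at, 1458381_at and 1431261_at) had means of -1.49, -1.37 and -1.26, and none overlapped between genotypes. Without pair 3 the 4 probe sets lay between -1.14 and -1.02, and after cyclic loess normalization between -1.02 and -0.80. These 4 probe sets read 1 gene in the same RNA and are not replicates. Clic5 was lower relative to Ager in each pair, by -0.86, -0.66 and -0.50 (mean -0.67 ± 0.18, log2), a comparison chosen after the values were seen and given with no test.

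Rtkn2 encodes rhotekin 2, a relative of the scaffold protein rhotekin. It read 498, 466 and 190 in CKO lungs, against 1267, 1451 and 493 in wild type lungs. Wild type 3 was itself low, just under CKO lung 1, so Rtkn2 was the one gene of the 9 whose groups overlapped. Within pairs the differences were -1.35, -1.64 and -1.37, the most even of the 9 genes, with a mean of -1.45 ± 0.16 (SE 0.188, 2.73-fold lower; limma, adjusted p = 0.367). Without pair 3 it was -1.49 (2.81-fold lower; limma, adjusted p = 0.0853) and after cyclic loess normalization -0.98. In the fit that ignores the pairs and leaves out Smad1 CKO 3 it was -1.01. In pairs 1 and 2, 0.22% of upper-tercile probe sets had a lower mean difference than Rtkn2, and in pair 3, 28.3% had.

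Akap5 encodes an anchoring protein that brings protein kinase A and calcineurin to the membrane. Its 3 probe sets disagreed. The brightest (1436142_at) read 1762, 2098 and 1147 in CKO lungs, against 2191, 2448 and 3175 in wild type lungs, a difference of -0.67 ± 0.69. The CKO values all lay below the wild type values, most clearly in pair 3. Probe set 1447301_at gave -0.87, while 1431717_at gave -0.19, with 0.14, -0.27 and -0.45 in the 3 pairs, and turned to 0.31 after cyclic loess and after quantile normalization. Probe set 1431717_at was the only one of the 18 that was not lower in all 3 pairs.

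Hopx encodes a small homeodomain protein that does not bind DNA and acts as a partner of transcription factors. Its brighter probe set (1428662_a_at) read 8531, 8731 and 2772 in CKO lungs, against 9237, 9449 and 10211 in wild type lungs. CKO lungs 1 and 2 were 1.08-fold below their partners, the smallest mean difference of the 9 genes in these pairs. The difference was -0.70 ± 1.02 over 3 pairs, -0.11 without pair 3 (interval -0.59 to 0.36) and -0.02 after cyclic loess normalization. The second probe set gave -0.64, -0.18 and -0.01.

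**Figure D2:**
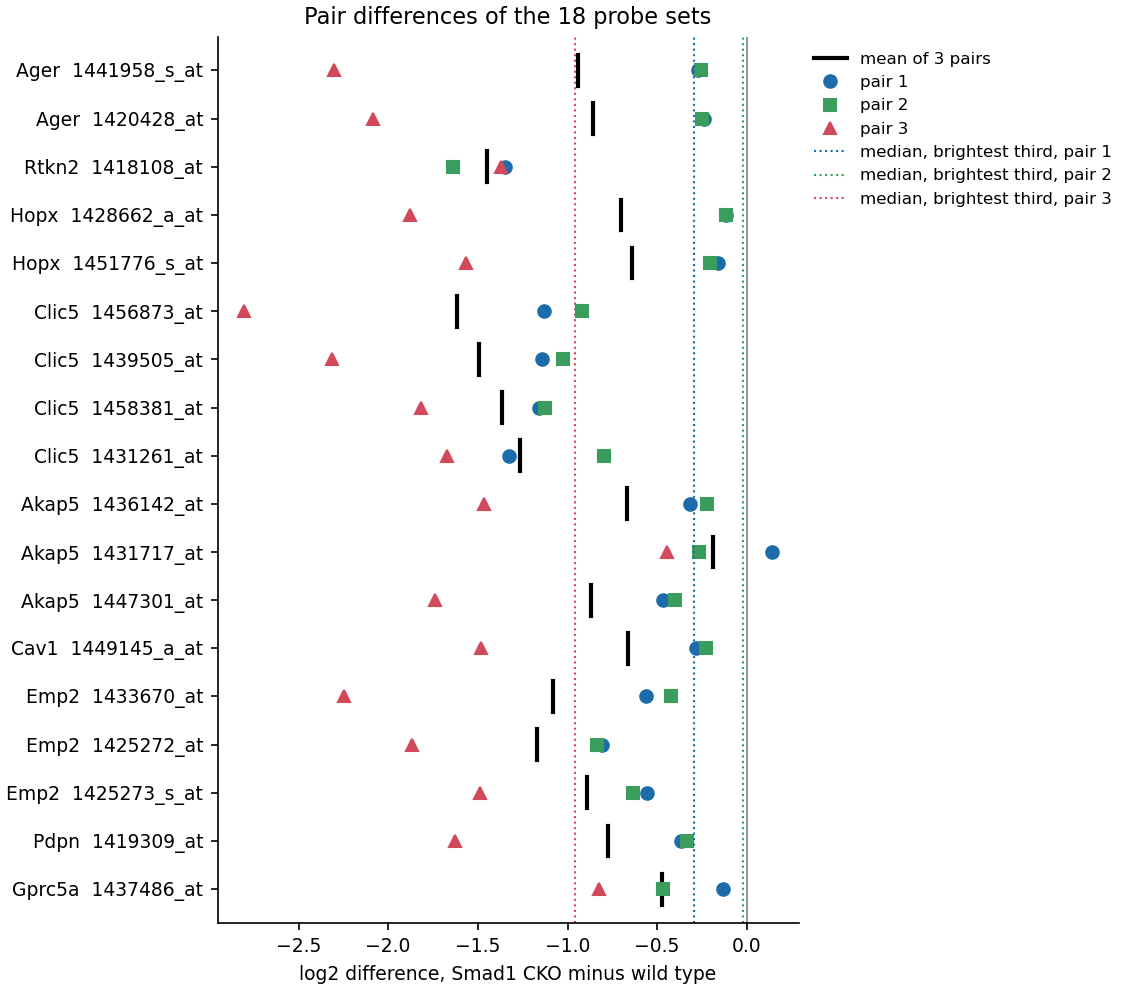
Log2 difference, Smad1 CKO minus wild type, of each of the 18 probe sets in each pair (coloured symbols) with the mean of the 3 pairs (black bar); dotted lines give each pair's median over the upper tercile of probe sets by mean intensity. Rtkn2 and the 4 Clic5 probe sets lie left of the other genes in pair 1, and in pair 2 as well except that 1 Emp2 probe set (-0.83) lies left of 1 Clic5 probe set (-0.79), while most pair 3 symbols lie near or left of that pair's own median of -0.96; Cav1, Gprc5a and 1431717_at of Akap5 turned their sign after cyclic loess normalization.

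In 8 of the 9 genes every CKO array lay below every wild type array. This held for 6.05% of all genes and for 11.2% of those in the upper tercile. The tercile is broad, and the 9 genes, at percentiles 89.2 to 99.8 of mean intensity, were not matched to it more closely. At least a 1.5-fold lower value in each of pairs 1 and 2 was found for 2 of the 9, Clic5 and Rtkn2, against 1.41% of all genes and 2.06% of the upper tercile. Of the 18 probe sets 10 were lower with an unadjusted p under 0.05, against 8.4% of all probe sets and 16.2% of the upper tercile, and these were the 4 of Clic5, the 3 of Emp2 and 1 each of Rtkn2, Pdpn and Akap5. Without pair 3 there were 8, from Clic5, Emp2 and Rtkn2 alone, against 5.81% of all probe sets, and 0 passed the adjusted threshold, which 24 lower probe sets (0.0533%) passed. After cyclic loess normalization there were 7, against 7.45% of all. For these fits the share was taken over all probe sets alone, not over the upper tercile, where the 18 lie. The median difference of the 9 genes was -0.78, against -0.09 over all genes and -0.48 in the upper tercile. By pair it was -0.31, -0.33 and -1.63, against -0.29, -0.03 and -1.09 in the upper tercile, so in pair 1 the median of the 9 genes was close to that of other bright genes. Without pair 3 it was -0.30, against -0.16 in the upper tercile. Cyclic loess normalization moved the median of all genes to 0.05 and that of the 9 genes to -0.23.

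**Figure D3:**
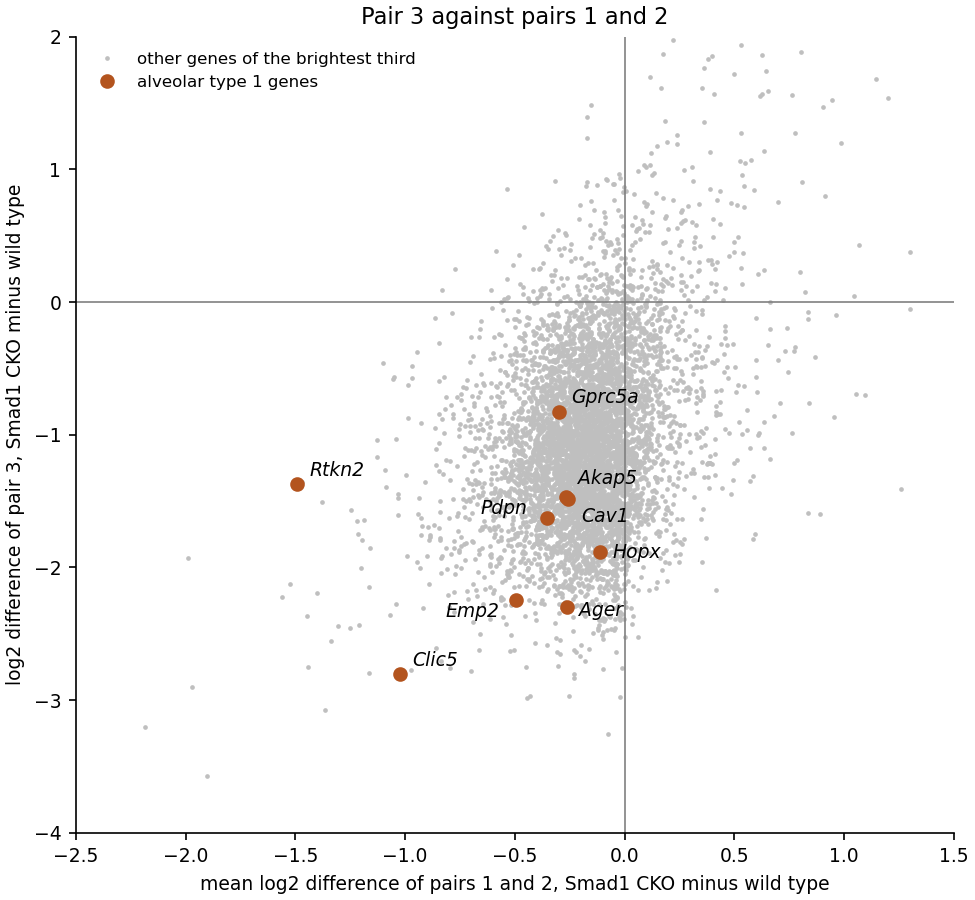
Log2 difference, Smad1 CKO minus wild type, in pair 3 (vertical) against the mean of pairs 1 and 2 (horizontal), for the 9 alveolar type 1 genes and the other genes of the upper tercile by mean intensity (27 of the 6065 lie outside the axes). Rtkn2 and Clic5 sit at the left edge of the cloud, at -1.49 and -1.02 on the horizontal axis, and Ager, Emp2 and Clic5 sit low on the vertical axis.

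**Figure D4:**
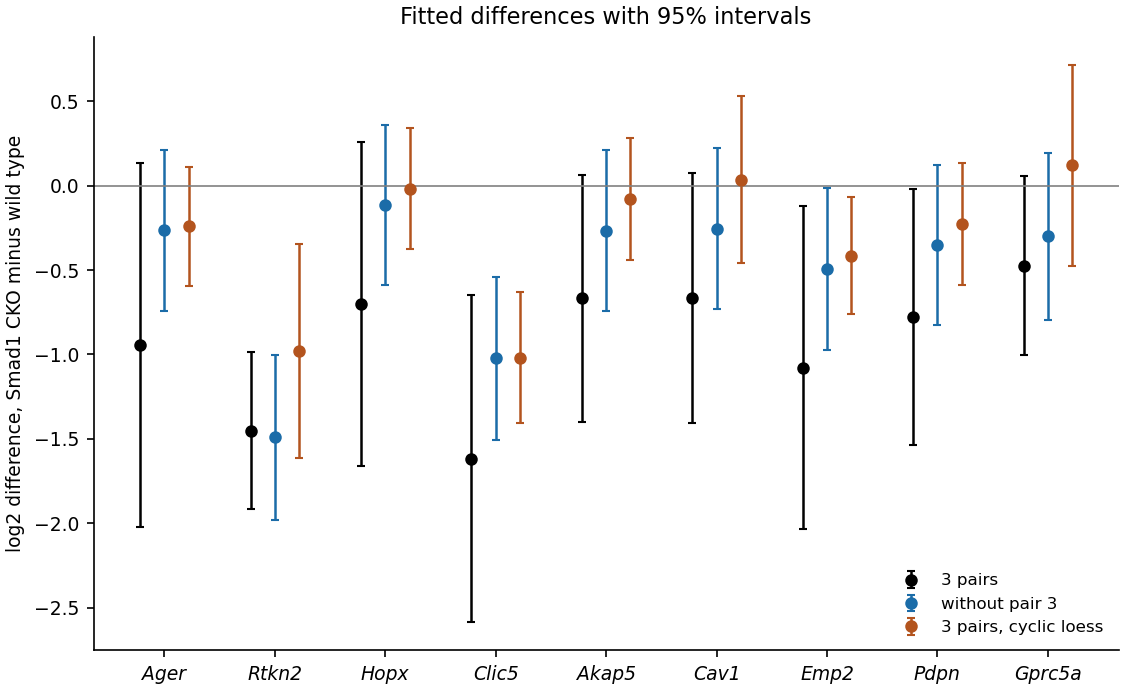
Fitted log2 difference, Smad1 CKO minus wild type, of the 9 genes with 95% intervals not adjusted for the number of probe sets, over 3 pairs (black), without pair 3 (blue) and over 3 pairs after cyclic loess normalization (orange). Clic5, Rtkn2 and Emp2 have intervals below 0 in all 3 fits, Pdpn in the fit over 3 pairs alone, and the other 5 in none; Cav1 and Gprc5a lie above 0 after cyclic loess.

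Other genes of type 1 cells were taken from a separate list of 20, of which 19 were measured. Of these 14 were lower in all 3 pairs, against 29.3% of all genes and 50.9% of the upper tercile. A further 5 were mixed, 0 were higher in all 3, and 0 passed the adjusted threshold in either direction. After cyclic loess normalization 8 were lower in all 3 pairs, and after quantile normalization 9. Aqp5, a water channel, read 153, 109 and 117 in CKO lungs, against 1397, 948 and 854 in wild type lungs, which is -3.05 ± 0.17 (8.29-fold lower; limma, adjusted p = 0.0731). Without pair 3 it was at -3.15 and passed (limma, adjusted p = 0.00102), the one gene of the list to do so. Whole-lobe RNA does not show in which cells Aqp5 changed. S100a6, a calcium-binding protein, was at -1.47 ± 0.47, the sodium channel subunit gene Scnn1g at -1.10 ± 0.20, and Col4a3, a collagen chain of the alveolar basement membrane, at -0.81 ± 0.23, and none of these passed. At the other end Igfbp2 was at 0.24 and Ndnf at 0.03, with 0.59 and 1.09 in pairs 1 and 2 and -1.59 in pair 3. The list median was -0.75 over 3 pairs and -0.43 without pair 3, against -0.78 and -0.30 for the 9 genes.

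Transcriptional regulators known for their part in type 1 cell fate had a median of -0.39, and of -0.17 without pair 3, which turned to 0.06 after cyclic loess normalization. Of the 8 measured, 4 were lower in all 3 pairs, against 29.3% of all genes and 50.9% of the upper tercile. Among the 8, 0 passed and 0 had an unadjusted p under 0.05. Nkx2-1, the lineage factor of lung epithelium, was at -0.11 and at 0.07 without pair 3. The Hippo pathway coactivators Yap1 and Wwtr1 were at -0.32 and -0.74, and at -0.16 and -0.28 without pair 3. Tead1, their DNA-binding partner, was at -0.42, Gata6 at -0.49 and Klf5 at -0.37, of which Klf5 was at 0.26 without pair 3. After cyclic loess normalization Nkx2-1, Yap1, Tead1, Tead4, Gata6 and Klf5 were above 0, at 0.12, 0.21, 0.08, 0.04, 0.02 and 0.18. Wwtr1 was then at -0.12 and Foxp2 at -0.02.

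Among the partners of caveolin-1, 5 of the 6 measured caveola components were lower in all 3 pairs and 0 passed. The share lower in all 3 pairs was 29.3% of all genes and 50.9% of the upper tercile. Cavin3 was at -1.18 ± 1.01, Cavin2 at -1.12 ± 1.00, the ATPase gene Ehd2 at -0.90 ± 0.52, Cav2 at -0.81 ± 0.88 and Cavin1, which caveolae need for their shape, at -0.44 ± 0.13. Cav3, the muscle caveolin, was at -0.05. Without pair 3 the 6 lay between -0.60 and -0.20, with a median of -0.50, against -0.26 for Cav1. Their median was -0.28 after cyclic loess normalization, which turned Cavin1 to 0.11.

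Relatives of the 9 genes were set beside them without pair 3, and the differences between relatives were not tested. After cyclic loess normalization over 3 pairs Clic1, Emp1 and Rtkn took the opposite sign (0.01, 0.19 and 0.32), as did Gprc5a. Clic1, Clic3 and Clic4 were at -0.16, -0.11 and -0.24 and Clic6 at 0.39, while Clic5 was at -1.02. Rtkn, the closest relative of Rtkn2, was at -0.14, against -1.49 for Rtkn2. Emp1 and Emp3 were at -0.09 and -0.33, and Emp2 at -0.49. Gprc5b and Gprc5c were at 0.31 and 0.32, and Gprc5a at -0.30. Over 3 pairs 7 of the 11 relatives were lower in every pair, against 29.3% of all genes and 50.9% of the upper tercile. Of the 11, 1 was higher in every pair and 0 passed. Of the 8 measured ligands of the Ager receptor and partners of podoplanin, 4 were lower in all pairs, 1 was higher and 0 passed. S100b, a ligand of the Ager receptor, was at 0.80 ± 0.62, S100a9 at -0.86 ± 0.45, and Clec1b, the platelet receptor of podoplanin, at -0.997 ± 0.47. S100b and Clec1b were dim, at percentiles 44.0 and 53.2 of mean intensity, and no detection calls were used. Ezr, an ezrin gene whose product links podoplanin to actin, was at -0.48, at -0.02 without pair 3 and at 0.08 after cyclic loess normalization.

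Lists of markers of other cell types had medians below 0 over 3 pairs as well. Some of these medians were near or above 0 without pair 3 or after cyclic loess normalization. None of the markers passed over 3 pairs, and their part in the values above was not tested. All 12 endothelial markers were lower in all 3 pairs, against 29.3% of all genes and 50.9% of the upper tercile. Of these markers, cyclic loess turned Eng to 0.35. Their median was -0.94, against -0.63 without pair 3 and -0.41 after cyclic loess, and their summed intensity ran from 5866 to 16064 in CKO lungs, against 17247 to 23485 in wild type lungs. Of the 11 measured type 2 cell markers 9 were lower in all pairs, with a median of -1.19 (-0.69 without pair 3 and -0.64 after cyclic loess normalization). They summed to 15944 to 57164 in CKO lungs, against 75353 to 88664 in wild type lungs. Lpcat1, a type 2 marker, passed without pair 3 (limma, adjusted p = 0.0215). General epithelial markers such as Epcam and Cdh1 had a median of -0.31, with 5 of 14 lower in all pairs, 0.15 without pair 3 and 0.27 after cyclic loess normalization. Their sum was 7937 to 26709 in CKO lungs, against 21916 to 23398 in wild type lungs. The 8 fibroblast markers had a median of -0.74 and of -0.07 without pair 3, with sums of 12637 to 61616 in CKO lungs, against 50893 to 64682 in wild type lungs. The low end of each CKO sum was Smad1 CKO 3. Without pair 3 the sums for endothelial markers were 15870 to 16064, against 22945 to 23485 in wild type lungs. Those for type 2 markers were 50764 to 57164, against 87856 to 88664. General epithelial markers then summed to 22101 to 26709, against 23362 to 23398, and fibroblast markers to 56652 to 61616, against 61210 to 64682. Distal tip progenitor markers (7) and airway markers (5) had medians of -0.38 and -0.59, and of -0.14 and -0.11 without pair 3, and cyclic loess turned the airway median to 0.05. The lowest intensity of any listed gene on any array was 23.8, for Prox1 on wild type 2, below that array's median of 70.0. No detection calls were used, so such dim genes cannot be called expressed. For Pdpn, the 5 measured lymphatic markers had a median of -0.29, which cyclic loess turned to 0.02, and 1 was lower in all pairs. The 6 mesothelial markers had a median of -0.33 (-0.13 after cyclic loess) and 2 were lower in all pairs, of which Msln, mesothelin, was at -1.78 ± 0.38.

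**Figure D5:**
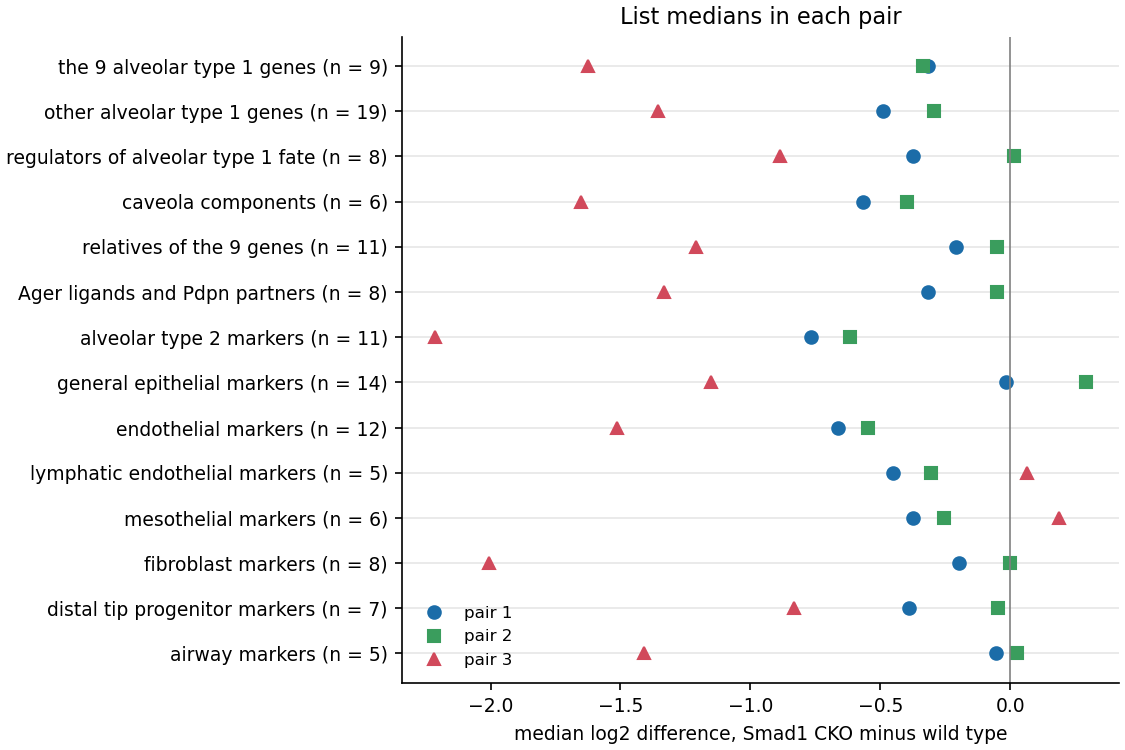
Median log2 difference, Smad1 CKO minus wild type, of the 9 alveolar type 1 genes and of each other gene list in each pair (symbols), with the number of measured genes in brackets. In pairs 1 and 2 the 9 genes (-0.31 and -0.33) lie between type 2 markers (-0.77 and -0.62) and general epithelial markers (-0.01 and 0.29). Pair 3 is the lowest in every list but the lymphatic and mesothelial ones. Those lists hold dim genes, such as Prox1 and Krt14 (percentiles 25.5 and 27.0 of mean intensity). In the lower tercile of probe sets the pair 3 median was 0.28, and the part of brightness in this exception was not tested. Medians of some lists turned their sign after cyclic loess normalization, and that of the 9 genes did not.

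Set against the median of general epithelial markers on the same arrays, 8 of the 9 genes (88.9%) were lower in all 3 pairs, against 18.1% of all genes and 42.1% of those in the upper tercile. Clic5 was lower than that median by -1.12, -1.21 and -1.65, Rtkn2 by -1.33, -1.93 and -0.22, Emp2 by -0.55, -0.72 and -1.10, and Ager by -0.26, -0.55 and -1.15. The exception was Gprc5a, at -0.12, -0.76 and 0.33. These values had no further normalization, and the comparison was not repeated after cyclic loess. Ager and Emp2 (percentiles 99.8 and 99.4 of mean intensity) were brighter than every general epithelial marker (77.9 for Cldn4 to 98.7 for Cdh1). The part of brightness in the pair 3 values was not tested. Set against endothelial markers, 1 of the 9 genes (11.1%) was lower in all 3 pairs, against 0.638% of all genes and 1.32% of the upper tercile. Set against type 2 markers it was also 1 of 9, against 0.198% and 0.429%. In both cases this was Clic5, with -0.47, -0.37 and -1.29 against endothelial markers and -0.36, -0.30 and -0.59 against type 2 markers.

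Across the 6 arrays the genes whose log2 level followed the mean centred profile of the 9 genes most closely were Ptpn1 (Pearson r = 0.9999), Cavin3 (0.9983), Timp3 (0.9976), S100a16 (0.9976) and Podxl (0.9975). For Ager alone they were Ywhah (0.9994), Vim (0.9993), Gabarap (0.9989), Dusp14 (0.9985) and Rpl41 (0.9982). Such values were common, since 1683 of the 9087 genes compared had an r over 0.95 with the 9-gene profile and 2434 had with Ager, and the points share the low value of Smad1 CKO 3. Among the 9 genes, r with Ager was 0.996 for Cav1, 0.994 for Hopx, 0.989 for Pdpn, 0.988 for Emp2 and 0.953 for Clic5, and the lowest were 0.852 for Akap5 and 0.802 for Rtkn2.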

How the data were processed

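RNA of the left lung lobe had been read on 6 arrays, 3 Smad1 CKO and 3 wild type. The authors deposited an intensity for each probe set, and its range is that of a linear scale. The submitters' processing notes name RMA, with no software or setting stated. Upper quartiles of intensity ran from 170 on Smad1 CKO 3 to 284 on wild type 2, so the arrays did not share a common distribution. The paired fit used these values without further normalization. Intensities were turned into log2(value + 1), which slightly shrinks differences of dim probe sets, and 64 control probe sets were set aside. Of the other 45037, 34945 had 1 gene symbol in the platform annotation, 932 several and 9160 none, and the brightest probe set over all arrays represented a gene. Genotype effects came from limma 3.58.1 (R 4.3.3; lmFit and eBayes, two-sided), with a term for each pair and p-values adjusted by Benjamini and Hochberg across the 45037 probe sets, at a threshold of 0.05. Intervals are the fit's 95% intervals, unadjusted. With 3 arrays a genotype, an exact permutation test cannot go below 0.1, or 0.25 within pairs, so none was used. The number of arrays limits the precision. The fit was run on simulated data with independent noise, equal on all arrays for a probe set. Those data gave no array an intensity-dependent shift of its own like that of Smad1 CKO 3, so they do not check for one.

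The design text speaks of pairs, and the scan names of each pair begin with a common letter. Deviations from group means correlated at 0.258, 0.604 and 0.597 within pairs, and from -0.620 to 0.215 between CKO and wild type arrays of different pairs, where the highest was wild type 1 with Smad1 CKO 2. The genes and lists were chosen with earlier results of these data known, so lists are described by counts and medians with no test of their own. By rule the text names all 9 genes, up to 4 genes with the smallest p of each other list, any gene of the caveola, relative, ligand and regulator lists, and the 5 genes most like the 9-gene profile or Ager. Igfbp2, Ndnf, Epcam, Cdh1, Eng, Prox1 and the sex-linked genes were named outside it, after their values were seen. Hmgb1, Lamp3 and Ccl21a were not used, since their probe sets carry several symbols, and Gramd2 and Pacsin2 were not analysed here.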

Additional observations from a re-analysis of the deposited data

How the results depend on the processing

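The alternatives changed the normalization, pseudocount, filter, prior, pairing or arrays, and in none of the 10 did any of the 18 probe sets pass the adjusted threshold, as in the paired fit. Of 180 values for single probe sets 175 kept their direction, but some of these could not turn. Changing the filter or the prior, or dropping the pair term with all arrays kept, left every difference as it was and changed only p-values. All 5 values that turned did so under a changed normalization. The 5 that turned were 1431717_at of Akap5 (0.31 after cyclic loess and 0.31 after quantile normalization), Gprc5a (0.12 and 0.11) and Cav1 (0.036, cyclic loess alone), and the cause was not tested. The other 15 probe sets were lower under all 10, which says nothing beyond the paired fit for the settings that left the differences unchanged. Cyclic loess left 5 of the 9 genes lower in all 3 pairs, and of the 19 other type 1 genes 8, or 9 after quantile normalization, against 14. In the fit with no replicate block, 8 of the 18 probe sets were lower with an unadjusted p under 0.05, against 10 with the pair, and pairing changed no call. Leaving out 1 pair gave 8 to 13 such probe sets and a median of the 9 genes from -0.998 to -0.30, the smallest without pair 3. The lists' counts over pairs have no value without pairs or without Smad1 CKO 3 alone. With 1 pair left out the fit rests largely on the spread pooled over probe sets. No detection calls were used, which limits the dimmest list genes rather than the 9 genes.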
